A study of Mus musculus with 4 samples.

Results

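Transcripts of 5 genes of antigen presentation by MHC class II were followed through the cell types of the mouse main olfactory epithelium: H2-Aa, H2-Ab1, H2-Eb1, Cd74 and Ciita. The group was set by gene name and holds 5 of the 22399 genes in the count tables. Their levels were taken per library and per barcode class, together with the share of barcodes that held at least 3 unique molecular identifiers (UMIs, each marking 1 captured RNA molecule) and the genes found together in 1 barcode. The study made 4 single-cell libraries, 2 from female and 2 from male wild type C57BL/6J mice aged 3 months, and its title concerns neurexins and the targeting of olfactory axons. No treatment, transgene or mutation is given, and the labels do not say whether a library holds 1 mouse or how the replicate numbers were set. Spread between libraries may therefore be technical as well as biological. Per the labels, the epithelium was dissected off the bone and dissociated with papain, and the kit captures 5′ transcript ends.

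MHC class II molecules show peptides from engulfed material to CD4 T cells. H2-Aa and H2-Ab1 encode the alpha and beta chains of the I-A molecule, and H2-Eb1 encodes the beta chain of I-E. Cd74, the invariant chain, occupies the binding groove and guides the new molecule to endosomes, where proteases trim it and H2-DM helps exchange the remnant for a peptide. Ciita is the coactivator that turns these genes on, and it works through the factors of the RFX, NF-Y and CREB families on the X and Y boxes of their promoters. Dendritic cells, macrophages and B cells carry class II at rest, while many epithelial cells gain it after interferon gamma.

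Promoters are shown for the members with an entry in the RefSeq promoter table, because the boxes through which Ciita works lie there. Entries on GRCm38.p6 were found for 2 of the 5 genes, H2-Aa and H2-Eb1. The 250 bases before each start are given 5′ to 3′ on the strand of the gene, at chr17:34287824-34288073 (minus strand) for H2-Aa and chr17:34305617-34305866 (plus strand) for H2-Eb1. Capitals mark matches to an X box motif (CTNGCAAC), a Y box motif (CTGATTGG) and a CRE-like motif (TGACGTCA).
H2-Aa: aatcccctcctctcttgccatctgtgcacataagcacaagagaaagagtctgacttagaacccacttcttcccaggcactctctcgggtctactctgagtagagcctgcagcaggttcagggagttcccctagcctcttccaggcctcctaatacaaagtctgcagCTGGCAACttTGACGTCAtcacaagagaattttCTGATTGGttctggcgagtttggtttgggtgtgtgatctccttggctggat
H2-Eb1: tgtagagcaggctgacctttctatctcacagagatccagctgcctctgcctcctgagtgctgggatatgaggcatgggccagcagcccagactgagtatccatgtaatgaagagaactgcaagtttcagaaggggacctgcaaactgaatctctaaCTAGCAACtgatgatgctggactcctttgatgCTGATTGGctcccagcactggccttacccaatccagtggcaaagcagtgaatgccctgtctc

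The X motif began 84 bases before the start of H2-Aa and 94 bases before that of H2-Eb1. The Y motif followed it after 25 bases in H2-Aa and after 24 bases in H2-Eb1. The CRE-like motif occurred 1 time in H2-Aa, between the 2 boxes, and 0 times in H2-Eb1. Both strands were searched and no motif overlapped another in these 2 promoters. Among 32851 promoters of 250 bases, 2.84% held the X motif, 3.83% held the Y motif and 1.55% held the CRE-like motif. An X followed by a Y on the same strand within 30 bases occurred in 8 promoters of 7 genes: H2-Aa, H2-Eb1, 2810029C07Rik, Cks2, Mark3, Mns1 and Net1. The 3 motifs were set with these 2 promoters in view, so the matches describe them and test nothing. In GENCODE M21 on GRCm38, H2-Ab1 (chr17:34257689-34269419, plus strand), H2-Aa (chr17:34282744-34287823, minus strand) and H2-Eb1 (chr17:34305867-34316674, plus strand) are neighbouring protein-coding genes. Ciita lies at chr16:10480059-10528418 (plus strand) and Cd74 at chr18:60803848-60812652 (plus strand).

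Depth lay between 100725429 and 111577458 UMIs per library over 41911 barcodes, of which 36385 passed the filters on genes, mitochondrial share and doublets. Between 105 and 129 barcode sequences were shared by each pair of libraries, and 0 of the shared ones were class II positive. Barcodes were sorted by 1 gate gene each, with all other gates closed: Ptprc (immune, 455 barcodes), Krt5 (basal, 1144), Cyp2g1 (supporting, 5898), Reg3g (respiratory secretory, 404), Dynlrb2 (respiratory ciliated, 75) and Omp (mature neuron, 16733). The marker lists followed the gates, in part by construction, since each list holds the gate gene of its own class. The 8 immune genes summed to between 8895 and 10603 UMIs per 1000000 UMIs (counts per 1000000, CPM) in the Ptprc barcodes of a library, and to between 1.08 and 50.2 in the Krt5, Cyp2g1, Reg3g and Omp barcodes. The 6 basal genes reached 7438 to 8447 in Krt5 barcodes, the 6 supporting genes 44057 to 48845 in Cyp2g1 barcodes and the 6 neuronal genes 23178 to 23443 in Omp barcodes. In Reg3g barcodes the 6 secretory genes took 286178 to 382246 of every 1000000 UMIs, which lowers the CPM of every other gene there. Supporting genes were also found in Reg3g barcodes (10039.5 to 12242) and in Krt5 barcodes (8854 to 9616).

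Libraries female 2 and male 2 stood above female 1 and male 1 for class II genes in most classes. All 4 values are given for part of the results, and others are given as mean and SD or pooled over libraries. Over all barcodes, Cd74 was at 276 and 525 CPM in female 1 and female 2, and at 203 and 435 in male 1 and male 2. H2-Ab1 was at 69.1, 145, 49.8 and 123 in the same order, H2-Aa at 69.8, 129.8, 56.1 and 111, H2-Eb1 at 64.5, 117, 49.98 and 101, and Ciita at 1.55, 2.32, 1.21 and 2.28. In Cyp2g1 and Krt5 barcodes Iigp1, Gbp2, Psmb8, B2m, H2-K1 and H2-D1, genes of the interferon response and of class I, had the same order of libraries, while Irf1 did not in Cyp2g1 barcodes. In Cyp2g1 barcodes Iigp1, an interferon-inducible GTPase, was at 5.28 and 33.3 in the females and at 3.15 and 20.5 in the males. B2m, the light chain of class I, was at 76.4 and 148 in the females and at 53.4 and 111 in the males. The origin of this order was not tested.

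Class II transcripts were highest in immune barcodes, came next in respiratory secretory, basal and supporting barcodes, and had their lowest means in ciliated barcodes and neurons. Cd74 was at 21469.7, 25890.4, 18884 and 25077 CPM in the Ptprc barcodes of female 1, female 2, male 1 and male 2. It was at 557, 1357, 517 and 1194 in Reg3g barcodes and at 404, 968, 459 and 728 in Krt5 barcodes. In Cyp2g1 barcodes the values were 105, 431, 46.9 and 319.6, so the highest library lay above the lowest of the Krt5 barcodes. Neurons (Omp) gave 9.10, 26.7, 3.67 and 13.9, and Dynlrb2 barcodes gave 9.17, 20.9, 0 and 92.3 from 2, 4, 0 and 23 UMIs. Every library of the immune class lay above every library of all others, while the ranges of Reg3g and Krt5 barcodes overlapped, as did those of Krt5 and Cyp2g1. Within each library, Reg3g barcodes were above Krt5 barcodes in 4 of 4, a difference that was not tested.

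H2-Ab1 fell in the same order of classes, with means of 6427 ± 1239 (SD, n = 4) in Ptprc barcodes, 254 ± 144 in Reg3g, 125 ± 81.7 in Krt5, 58.2 ± 49.2 in Cyp2g1 and 5.42 ± 2.92 in Omp barcodes. Within the supporting class its 4 libraries read 24.5, 115, 10.3 and 83.3, a larger ratio of highest to lowest than in immune barcodes, where they read 5781, 7317, 5008 and 7600.4. H2-Aa averaged 7142 ± 1052, 194 ± 80.9, 114 ± 60.7, 33.96 ± 28.2 and 3.04 ± 2.15 in the same classes, and H2-Eb1 averaged 6669.7 ± 1028, 133 ± 41.8, 90.8 ± 48.9, 32.0 ± 23.9 and 2.45 ± 1.41. The coactivator Ciita was scarce everywhere, at 33.5 ± 8.38 in Ptprc barcodes (96 UMIs in all), 5.13 ± 2.78 in Reg3g, 3.24 ± 1.28 in Cyp2g1, 3.06 ± 0.904 in Krt5 and 0.147 ± 0.158 in Omp barcodes. Dynlrb2 barcodes held 0 Ciita UMIs, which allows up to 3.54 CPM. All 17 UMIs of H2-Ab1 in Dynlrb2 barcodes came from male 2.

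**Figure D1:**
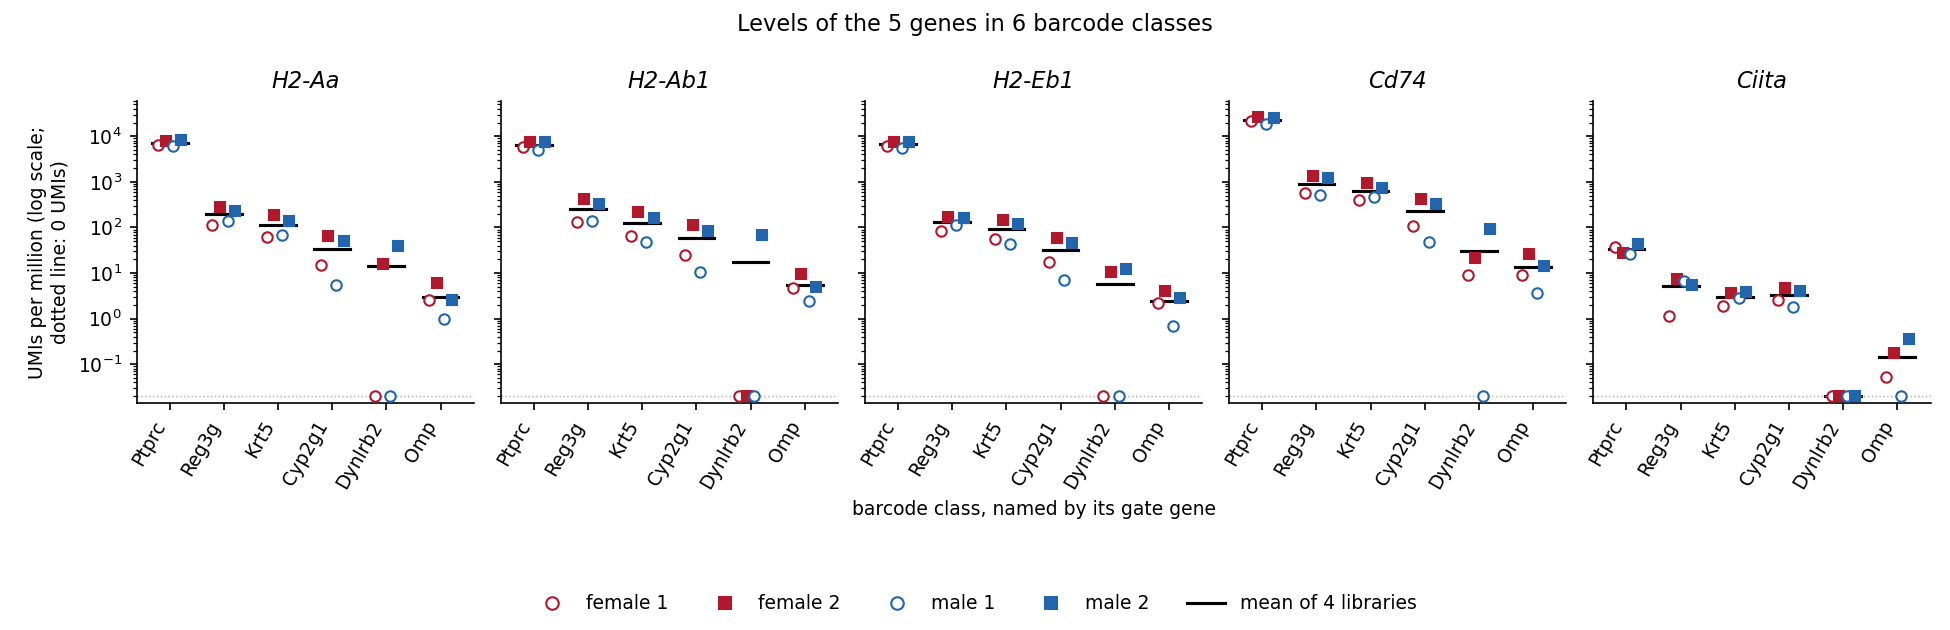
CPM (log axis) of the 5 genes in each barcode class, 1 point per library (open circles replicate 1, filled squares replicate 2, red female, blue male) with a line at the mean of 4 libraries; points on the dotted line held 0 UMIs. Immune barcodes sit above all other classes for every gene, and female 2 and male 2 lie above female 1 and male 1 in Krt5 and Cyp2g1 barcodes.

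Counts summed per library and class were tested with edgeR's quasi-likelihood test with the library as a block and Benjamini-Hochberg adjustment over 13345 genes. All 5 genes were called higher than in Omp barcodes in the immune class, where 33.9% of all genes tested were called higher, and in Krt5 (39.4%), Cyp2g1 (41.9%) and Reg3g barcodes (39.4%). With backgrounds of this size a call by itself says little, and the size of the difference is the more telling value. On the log2 scale Cd74 stood 11.37 (SE 0.44) above neurons in Ptprc barcodes, 6.92 (SE 0.37) in Reg3g, 5.98 (SE 0.36) in Krt5 and 4.05 (SE 0.33) in Cyp2g1 barcodes, each with an adjusted p of 5.22e-12 or lower by edgeR. The median over all genes tested lay between -0.16 and -0.01 in these 4 comparisons. The median of the 5 genes was 11.37, 6.54, 5.39 and 3.64 in the same order. Between Dynlrb2 barcodes and neurons edgeR called 0 of the 5 genes (26.3% of all genes were called higher), and 0 had an unadjusted p under 0.05. DESeq2 called 2 of them, and it called 4795 of all 13345 genes higher and 2888 lower. The Dynlrb2 sums held at most 29 UMIs per gene.

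Among the epithelial classes, Krt5 barcodes exceeded Cyp2g1 barcodes for 4 of the 5 genes, against 30.4% of all genes called higher. Basal minus supporting was 2.07 (SE 0.31) for H2-Aa, 1.93 (SE 0.30) for Cd74, 1.76 (SE 0.27) for H2-Eb1 and 1.40 (SE 0.31) for H2-Ab1 on the log2 scale, with edgeR adjusted p from 1.59e-06 to 0.000279. Without the library block H2-Ab1 missed the threshold (adjusted p = 0.0622). Ciita did not pass the test (0.04, SE 0.48, adjusted p = 0.947), and its sums held 27 UMIs in Krt5 barcodes. Reg3g barcodes exceeded Cyp2g1 barcodes for all 5 genes, against 23.8% of all genes, by 3.39 (SE 0.32) for H2-Aa and 2.87 (SE 0.31) for Cd74. Ciita, at 1.20 (SE 0.46, edgeR adjusted p = 0.0357), lost this call without TMM scaling (0.57, adjusted p = 0.249), with no filter on low counts (adjusted p = 0.0564), without the block (0.0648) and without female 2, male 1 or male 2 (0.163, 0.174 and 0.0763). Without TMM scaling the median gene of the Reg3g to Cyp2g1 comparison moved from -0.03 to -0.64, and 15.3% of its calls were higher in place of 51.1%, while H2-Aa and Cd74 remained called at 2.76 and 2.24. Reg3g barcodes also exceeded Dynlrb2 barcodes for H2-Aa, H2-Ab1, H2-Eb1 and Cd74 (23.5% of all genes were called higher), by 5.76 (SE 0.50) for Cd74. edgeR called Ciita there too, but the 0 UMIs in Dynlrb2 barcodes allow up to 3.54 CPM and the Reg3g libraries lay between 1.16 and 7.43, so this call rests on a count of 0 that allows levels within the Reg3g range.

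At the level of single barcodes, class II was carried by a minority of epithelial cells. At least 3 Cd74 UMIs were found in 51.4% of Ptprc barcodes (exact binomial 95% interval 46.7% to 56.1%), 37.1% of Reg3g (32.4% to 42.0%), 33.5% of Krt5 (30.7% to 36.3%), 12.1% of Cyp2g1 (11.3% to 13%) and 0.233% of Omp barcodes (0.166% to 0.318%). These intervals pool the barcodes of 4 libraries and cover counting error only. The SD between libraries was 5.57 percentage points in Ptprc, 8.59 in Reg3g, 5.75 in Krt5, 6.90 in Cyp2g1 and 0.143 in Omp barcodes (n = 4). The Cyp2g1 shares of female 1, female 2, male 1 and male 2 were 8.98%, 19.9%, 4.35% and 15.5%, all outside the pooled interval. For H2-Ab1 the pooled shares were 39.6%, 19.6%, 7.26%, 5.71% and 0.179% in the same order of classes. Median depth differed between the classes, from 5501 UMIs in Ptprc barcodes and 8082 in Omp barcodes to 7920.0 in Krt5, 13314.5 in Cyp2g1 and 17955.5 in Reg3g barcodes. After each barcode was thinned to 2000 UMIs, which left out 46 Ptprc, 12 Reg3g, 4 Krt5, 180 Cyp2g1 and 215 Omp barcodes as too shallow, the Cd74 shares were 50.4% in Ptprc, 12.2% in Reg3g, 10.7% in Krt5, 4.60% in Cyp2g1 and 0.121% in Omp barcodes, which kept the order of classes. Ciita reached 3 UMIs in 7 Ptprc, 3 Reg3g, 16 Cyp2g1, 1 Omp and 0 Krt5 barcodes.

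Cd74 was also set against Tyrobp, an adaptor of myeloid and NK cells that the gates did not use. Ptprc barcodes held 8.65 Cd74 UMIs per Tyrobp UMI (66691 against 7707), and Omp barcodes held 12.2 (1837 against 150). The ratio was 156 in Krt5 barcodes (5631 against 36), 130.0 in Cyp2g1 barcodes (17934 against 138) and 259 in Reg3g barcodes (6738 against 26). By the immune lineages set out below, Cd74 and Tyrobp UMIs were 44726 and 4806 in macrophage and 19512 and 1003 in dendritic barcodes. They were 565 and 2 in B lineage, 23 and 112 in T or NK, and 40 and 1059 in neutrophil barcodes. The ratio of 8.65 thus pools lineages that differ. These are sums over 4 libraries with no spread between them, and the part of free RNA in any class was not tested.

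A barcode was called class II positive when at least 2 of H2-Aa, H2-Ab1 and H2-Eb1 held 3 or more UMIs. Of Ptprc barcodes 35.0%, 44.4%, 31.2% and 44.0% were positive in female 1, female 2, male 1 and male 2. The shares were 10.3%, 22.8%, 12.3% and 19.4% in Reg3g barcodes, 3.39%, 12.2%, 3.44% and 8.18% in Krt5 barcodes, and 2.20%, 8.80%, 0.883% and 6.29% in Cyp2g1 barcodes. In each of these classes the replicate 2 library of either sex lay above both replicate 1 libraries. Only 19 of 16733 Omp barcodes were positive (0.114%, exact interval 0.0684% to 0.177%), and the 2 positive Dynlrb2 barcodes both came from male 2. By library the Omp shares were 0.0703%, 0.247%, 0.0242% and 0.117%, and the interval covers counting error only. The highest share was 1.42 times the lowest in Ptprc, 2.22 times in Reg3g, 3.59 times in Krt5 and 9.96 times in Cyp2g1 barcodes, while in percentage points the Ptprc shares lay farthest apart. Whether the classes differ in this spread was not tested.

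**Figure D2:**
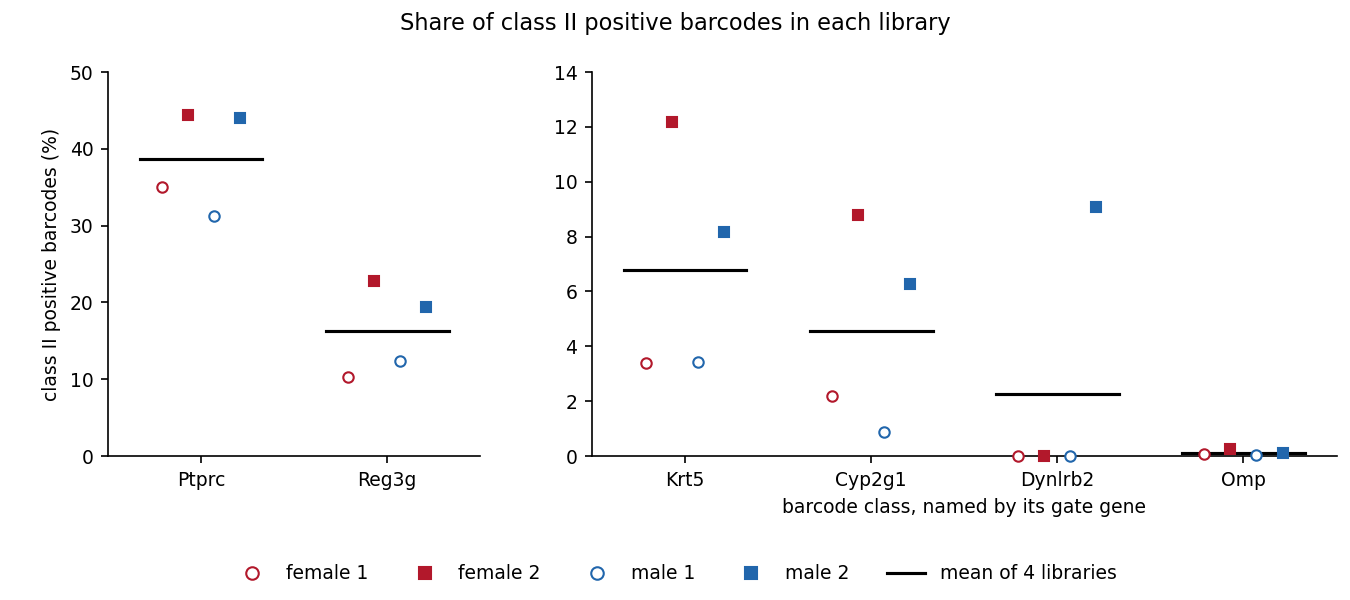
Percent of class II positive barcodes (linear axes from 0, with different upper ends) in each class and library, with a line at the mean of 4 libraries. The 2 replicate 2 libraries lie above the 2 replicate 1 libraries in Ptprc, Reg3g, Krt5 and Cyp2g1 barcodes, and the sexes overlap in all 4.

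The sexes, the only groups in the labels, could not be separated. Male minus female was -2.14 percentage points of positive barcodes in the immune class (means 37.6% and 39.7%), -1.98 in Krt5 (5.81% and 7.78%), -1.91 in Cyp2g1 (3.59% and 5.50%) and -0.687 in Reg3g barcodes (15.9% and 16.6%). Exact two-sided permutation tests over the 4 libraries gave p from 0.667 to 1, adjusted p = 1 over 6 classes, and 2 against 2 libraries cannot give a p below 0.333. In edgeR 0 of the members tested were called between the sexes in Ptprc, Krt5, Cyp2g1, Reg3g and Omp barcodes, where 0.484%, 0.0561%, 0.0901%, 0.051% and 0.00716% of all genes were called, and 0 had an unadjusted p under 0.05; DESeq2 also called 0. Ciita did not pass the filter in Krt5 and Omp barcodes, and none of the 5 genes passed it in Dynlrb2 barcodes. Male minus female of Cd74 was -0.05 (SE 0.21) in Ptprc, -0.16 (SE 0.31) in Krt5, -0.51 (SE 0.82) in Cyp2g1, -0.14 (SE 0.42) in Reg3g and -0.99 (SE 0.83) in Omp barcodes on the log2 scale. The sign hung on single libraries. In Krt5 barcodes Cd74 was 0.58 higher in males when female 2 was left out, and at -0.67 when female 1 was left out. Each of these fits holds 1 female library, which is assumed to vary as the 2 male libraries do.

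Within a barcode the genes occurred together. Of the Ptprc barcodes with 3 or more UMIs of any class II gene, 98.9% also held 3 or more of Cd74, and the share was 94.8% of 115 Krt5, 92.2% of 399 Cyp2g1 and 94.6% of 93 Reg3g barcodes. All 3 class II genes reached 3 UMIs in 88.9% of such Ptprc barcodes, against 40.9% of Krt5, 42.9% of Cyp2g1 and 53.8% of Reg3g barcodes, where the UMIs per gene were fewer. The reverse did not hold to the same degree. Cd74 was the most abundant of these genes, in Krt5 barcodes at a mean of 640 CPM against 114 for H2-Aa, 125 for H2-Ab1 and 90.8 for H2-Eb1. It therefore reaches 3 UMIs more readily than a class II gene, and the part of this in the shares below was not tested. Of barcodes with 3 or more Cd74 UMIs, 20.1% had no class II gene at 3 UMIs in the immune class, against 71.5% in Krt5 (274 of 383), 48.6% in Cyp2g1 (348 of 716) and 41.3% in Reg3g barcodes (62 of 150). In 122 Krt5, 138 Cyp2g1 and 19 Reg3g barcodes Cd74 reached 3 UMIs with 0 UMIs of all 3 class II genes, called Cd74 only below.

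The balance of Cd74 to class II UMIs also differed by class. Per UMI of H2-Aa, H2-Ab1 and H2-Eb1 together there were 1.18, 1.14, 1.14 and 1.07 Cd74 UMIs in the Ptprc barcodes of female 1, female 2, male 1 and male 2. The values were 2.21, 1.75, 2.88 and 1.72 in Krt5 barcodes, 1.85, 1.81, 2.04 and 1.80 in Cyp2g1 barcodes and 1.69, 1.54, 1.33 and 1.64 in Reg3g barcodes. All 12 values of Krt5, Cyp2g1 and Reg3g barcodes lay above the 4 Ptprc ones. Omp barcodes lay on both sides of these, from 0.905 in male 1 to 1.37 in female 2. The Ptprc values pool the lineages set out below. B lineage barcodes held 565 Cd74 UMIs against 73 of H2-Aa, 68 of H2-Ab1 and 47 of H2-Eb1. The same counts were 44726 against 13309, 11709 and 13055 in macrophage, and 19512 against 6906, 6585 and 6002 in dendritic barcodes. The part of lineage was not tested. Restricted to positive barcodes, the ratio was 1.12 ± 0.0390 (SD, n = 4) in Ptprc, 1.65 ± 0.432 in Krt5, 1.66 ± 0.0283 in Cyp2g1 and 1.48 ± 0.160 in Reg3g barcodes. Each Krt5, Cyp2g1 and Reg3g library again lay above the highest Ptprc one (1.16). Positive Omp barcodes ran from 0.855 in female 1 to 1.78 in male 2.

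**Figure D3:**
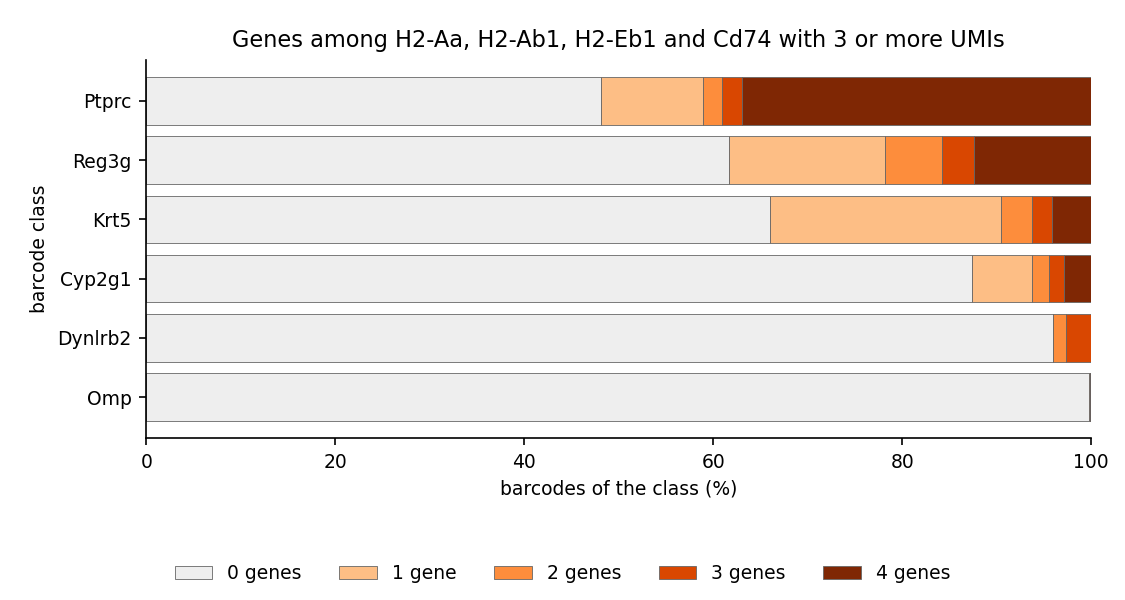
Percent of the barcodes of each class in which 0, 1, 2, 3 or 4 of H2-Aa, H2-Ab1, H2-Eb1 and Cd74 reached 3 UMIs, pooled over 4 libraries. All 4 genes reached it in 36.9% of Ptprc barcodes, and exactly 1 gene did in 24.5% of Krt5 barcodes.

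What else distinguished class II positive epithelial barcodes was asked by setting them against negative barcodes of the same class, those with 0 UMIs of the 3 class II genes and Cd74. There were 266 positive and 4048 negative Cyp2g1 barcodes, 72 and 439 Krt5 barcodes, and 64 and 148 Reg3g barcodes. Ciita was not used to choose them. In Cyp2g1 barcodes it was at 25.9, 27.8, 27.7 and 29.1 CPM in the positive barcodes of female 1, female 2, male 1 and male 2, and at 1.35, 0.734, 1.53 and 1.58 in the negative ones. All 4 positive values lay above all 4 negative ones, with a mean of 27.6 ± 1.34 (SD, n = 4). Ciita was 4.51 (SE 0.35) higher on the log2 scale (edgeR adjusted p = 9.74e-09) and was called under 13 of 13 alternatives, against 8.43% of 11927 genes called higher. In Krt5 and Reg3g barcodes Ciita passed no filter for the test, with 8 UMIs in positive and 4 in negative Krt5 barcodes and with 28 and 1 in Reg3g barcodes. With no filter on low counts edgeR called it in Reg3g barcodes (4.53, adjusted p = 1.62e-05) but not in Krt5 barcodes (2.71, adjusted p = 0.356). Both fits rest on these few UMIs. The members that chose the barcodes were not tested here.

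Accessory genes of the pathway were higher in part. H2-DMa and H2-DMb1, the chains of the peptide exchange factor H2-DM, were higher in positive barcodes of all 3 classes: H2-DMb1 by 4.10 (SE 0.13) in Cyp2g1, 2.74 (SE 0.24) in Krt5 and 3.60 (SE 0.27) in Reg3g, and H2-DMa by 3.04 (SE 0.11), 3.91 (SE 0.32) and 3.74 (SE 0.32), with edgeR adjusted p of 1.15e-06 or lower. Of the 12 accessory genes in the list, 6 were tested in Cyp2g1 barcodes, and 4 were higher and 1 lower, while 3 of 4 tested were higher in Krt5 and 3 of 4 in Reg3g barcodes, against 3.69% and 5.84% of all genes. Lgmn, an endosomal protease, was 0.41 higher in Cyp2g1, 1.46 in Krt5 and 1.24 in Reg3g barcodes. Ctss, the protease that trims Cd74 in antigen-presenting cells, was 5.37 (SE 0.59) higher in Cyp2g1 barcodes, and Ctsl, which does so in thymic epithelium, was lower there (-0.30, SE 0.09, edgeR adjusted p = 0.0196), against 7.08% of all genes called lower and kept under 10 of 13 alternatives and lost without female 2 or male 2 and without doublet removal. H2-DMb2 did not pass the test (0.53, adjusted p = 0.702), and reads of it and of its close copy H2-DMb1 may be divided unevenly. H2-Ea and Ifi30, also in the list, were not analysed here. Of the constitutive regulators, 0 of 7 tested RFX, NF-Y and CREB genes were called in Cyp2g1 barcodes, 0 of 4 in Krt5 and 0 of 2 in Reg3g barcodes, and DESeq2 called 0. At an unadjusted p under 0.05 there were 2 in Cyp2g1 barcodes, Rfxap (0.0294) and Rfx5 (0.0208), and 0 in the other classes, beside 3069 of all 11927 genes in Cyp2g1 barcodes. Regulators and Ciita were not compared by a test.

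Genes that interferon induces and genes of class I presentation rose in the same barcodes. In Cyp2g1 barcodes 11 of 13 tested interferon genes and 10 of 10 class I genes were higher and 0 were lower, with medians of 3.16 and 3.23 against -0.01 for all genes. In Krt5 barcodes 9 of 12 and 8 of 9 were higher, of 5632 genes tested, and in Reg3g barcodes 5 of 8 and 8 of 9, of 5274 genes tested. Iigp1 was at 134, 235, 176 and 225 CPM in positive Cyp2g1 barcodes of the 4 libraries and at a mean of 1.39 ± 0.932 (SD, n = 4) in negative ones, a difference of 7.16 (SE 0.18). In Reg3g barcodes Iigp1 had 140 UMIs in the positive and 0 in the negative barcodes. Gbp2, a guanylate-binding GTPase, was higher by 7.09 (SE 0.21) in Cyp2g1, 4.76 (SE 0.25) in Krt5 and 4.67 (SE 0.40) in Reg3g barcodes.

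Ifi47 (6.62) and Gbp7 (6.19), also interferon-inducible GTPases, completed the 4 largest differences among the pathway lists in Cyp2g1 barcodes. Gbp7 (4.57) and Cxcl10 (4.64), a chemokine for T cells, did so in Krt5 barcodes. Psmb8, a subunit of the immunoproteasome, was higher by 5.35, 2.79 and 2.35 in the 3 classes. The receptor genes of interferon gamma moved little: Ifngr2 was called at 0.34 in Cyp2g1 and 0.92 in Reg3g barcodes (edgeR adjusted p = 0.0478 and 0.0483), calls that 2 and 5 of 13 alternatives kept, and Ifngr1 differed by 0.25 (SE 0.24), -0.41 (SE 0.33) and -0.20 (SE 0.42), with edgeR adjusted p of 0.591 or higher. Of 4513 genes tested in all 3 classes, 60 were higher in every one, which is 9.80% of the Cyp2g1, 44.8% of the Krt5 and 25.2% of the Reg3g list; they include B2m, H2-K1, H2-D1, Tap1, Psmb9, Irf1, Irf7 and Irf9.

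**Figure D4:**
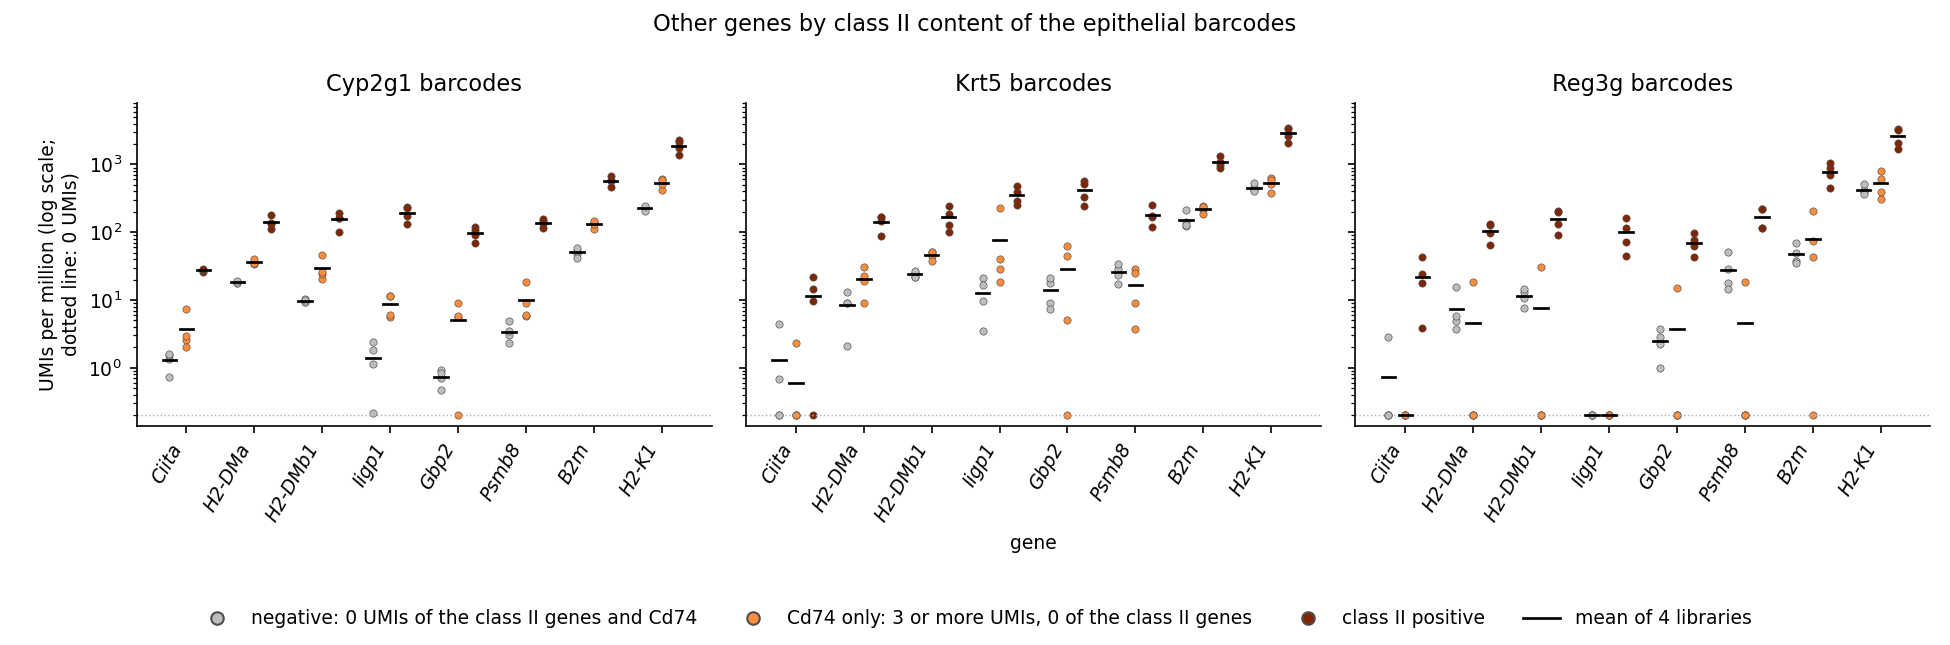
CPM (log axis) of Ciita and 7 pathway genes in negative, Cd74 only and class II positive barcodes of 3 epithelial classes, 1 point per library and a line at the mean of 4 libraries; points on the dotted line held 0 UMIs. Positive barcodes lie above negative ones in every library for B2m and H2-K1 in all 3 classes, and the Cd74 only means of B2m lie between the other 2 means.

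Cd74 only barcodes lay between the others, nearer to the negative ones. B2m averaged 50.4 ± 7.24 (SD, n = 4), 134 ± 15.4 and 576 ± 82.1 CPM in negative, Cd74 only and positive Cyp2g1 barcodes. In Krt5 barcodes the same values were 151 ± 39.9, 218 ± 24.8 and 1082 ± 194. H2-DMb1 averaged 9.74 ± 0.409, 29.4 ± 11.6 and 155 ± 38.7 in Cyp2g1 barcodes and 23.9 ± 2.42, 46.1 ± 6.59 and 165 ± 65.0 in Krt5 barcodes. Reg3g had 19 Cd74 only barcodes, with 1 to 9 per library, and was not placed.

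Immune genes were low in positive epithelial barcodes, though higher than in negative ones in some libraries. Of 5 immune genes, 0 UMIs were found in 94.4% of positive and 96.99% of negative Cyp2g1 barcodes, 91.7% and 99.1% of Krt5 barcodes, and 96.9% and 95.9% of Reg3g barcodes. The summed level of all 8 immune genes was 4.31 to 113 CPM in the positive Cyp2g1 barcodes of a library, 3.68 to 410.1 in Krt5 and 0 to 314 in Reg3g, against at most 6.24 in the negative barcodes of these classes and at least 8895 in immune barcodes. When the comparison was limited to barcodes with 0 UMIs of the 5 immune genes, 24 pathway genes were called in either direction in Cyp2g1, 18 in Krt5 and 15 in Reg3g barcodes, against 26, 20 and 16 without this limit. Of all genes, 1850 of 11927, 324 of 5632 and 518 of 5274 were called without it. The limit left most positive barcodes in place, so similar counts say little, and the part of immune content was not tested. Positive barcodes were deeper in all 3 classes, with medians of 13709 against 13190.0 UMIs in negative Cyp2g1, 9545 against 7657 in Krt5 and 19593.5 against 16392.5 in Reg3g barcodes, and the part of depth was not tested.

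Markers of the epithelial cells themselves moved with class II content, and their part in the results above was not tested. In Cyp2g1 barcodes the gate gene averaged 4077 ± 526 CPM in positive and 17376 ± 810.4 in negative barcodes (SD, n = 4). Of the 6 supporting markers 3 were lower there (Cyp2g1, Cyp1a2 and Ugt2a1) and 1 higher (Cbr2, by 0.19). Markers of other cell types were also lower: 3 of 3 immature neuron genes (Gap43, by -1.29, Gng8 and Dpysl3), the ensheathing glia gene Sox10 (by -5.11), 2 of 6 neuronal genes (Omp, by -0.40, and Gnal) and 2 of 5 tested secretory genes (Muc5b, by -2.25, and Cyp2f2). The secretory gene Scgb1c1 was higher by 1.19 and the basal list's Icam1 by 1.62. Genes singled out after their values were seen, the sulfotransferases Sult1c1 (28.4 against 1967 CPM) and Sult6b1 (2.004 against 315) and the acyl-CoA synthetase Acsm4 (5.72 against 177), were also lower. In Krt5 barcodes Krt14 was 0.55 higher and Krt15 lower (-1.33), while Krt5 itself did not pass the test (0.26, edgeR adjusted p = 0.183). The secretory genes Bpifa1 (-3.16) and Cyp2f2 (-1.35), Dcn of the fibroblast list (-1.69) and the supporting gene Cbr2 (-0.48) were lower there. Foxj1, the master regulator of motile cilia, was higher by 0.87. In Reg3g barcodes 4 of 6 supporting markers were higher, among them Ermn by 2.08 and Cyp1a2 by 2.38, and 3 of 6 secretory markers were lower, among them the mucin Muc5b (255 against 1949 CPM). Foxj1 was lower there (-3.60).

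Immune barcodes were divided by marker lists that hold none of the 5 genes. Of 455 barcodes, 184 fell to the macrophage list, 62 to T or NK, 55 to dendritic, 55 to neutrophil and 14 to B lineage, and 85 stayed unassigned. Class II positive were 52 of 55 dendritic barcodes (94.5%), 107 of 184 macrophage barcodes (58.2%), 7 of 14 B lineage barcodes, and 0 of 62 T or NK and 0 of 55 neutrophil barcodes, which allow up to 4.84% and 5.45%. In dendritic barcodes Cd74 was at 36279.5, 35888, 38268 and 34257 CPM in female 1, female 2, male 1 and male 2. In macrophage barcodes it was at 29540.0, 31989.8, 24616 and 33633, and both ranges were narrow beside the epithelial ones as a ratio of highest to lowest. Macrophage levels of Cd74, H2-Aa, H2-Ab1 and H2-Eb1 repeated the library order of the epithelium, with both replicate 2 libraries above both replicate 1 libraries, while Cd74 in dendritic barcodes did not. The share of positive macrophages did not repeat it either, at 58.8% and 58.0% in female 1 and female 2, against 43.6% in male 1 and 70.5% in male 2.

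H2-Ab1 was higher in dendritic than in macrophage barcodes by 0.68 (SE 0.17, edgeR adjusted p = 0.00245) and H2-Aa by 0.54 (SE 0.16, adjusted p = 0.00797), so 2 of the 4 genes tested were called, against 25.9% of 1980 genes. H2-Eb1 differed by 0.36 (SE 0.16, adjusted p = 0.0729) and Cd74 by 0.33 (SE 0.35, adjusted p = 0.461). These calls were not robust to single libraries. Without female 1 or female 2 edgeR called 1 gene, and without male 1 or male 2 it called 0, with H2-Ab1 at 0.36 and 0.51. T or NK barcodes held 0 UMIs of H2-Eb1, 1 of H2-Aa and 3 of H2-Ab1, and neutrophil barcodes held 1 of each. All 4 genes tested were called lower than in macrophages in both, against 28.8% and 25.9% of genes called lower. Ciita held 45 UMIs in macrophage, 44 in dendritic and 0 in T or NK and neutrophil barcodes, and averaged 80.2 ± 8.81 CPM in dendritic and 31.1 ± 13.4 in macrophage barcodes (SD, n = 4), with no overlap between the libraries.

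Dendritic and macrophage barcodes carried different accessory genes. Of 7 tested, H2-DMb2 (4.07), H2-Oa (3.16), H2-DMa (0.78) and H2-DMb1 (0.51) were higher in dendritic barcodes, and Lgmn (-4.00), Ctsl (-3.05) and Ctss (-1.73) were lower, against 20.4% of genes called lower. H2-Oa encodes a chain of H2-DO, which restrains H2-DM. Jak2 (3.22), Cxcl10 (-2.26), Cd274 (1.75) and Tap1 (1.62) had the largest differences among the interferon and class I genes by edgeR.

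**Figure D5:**
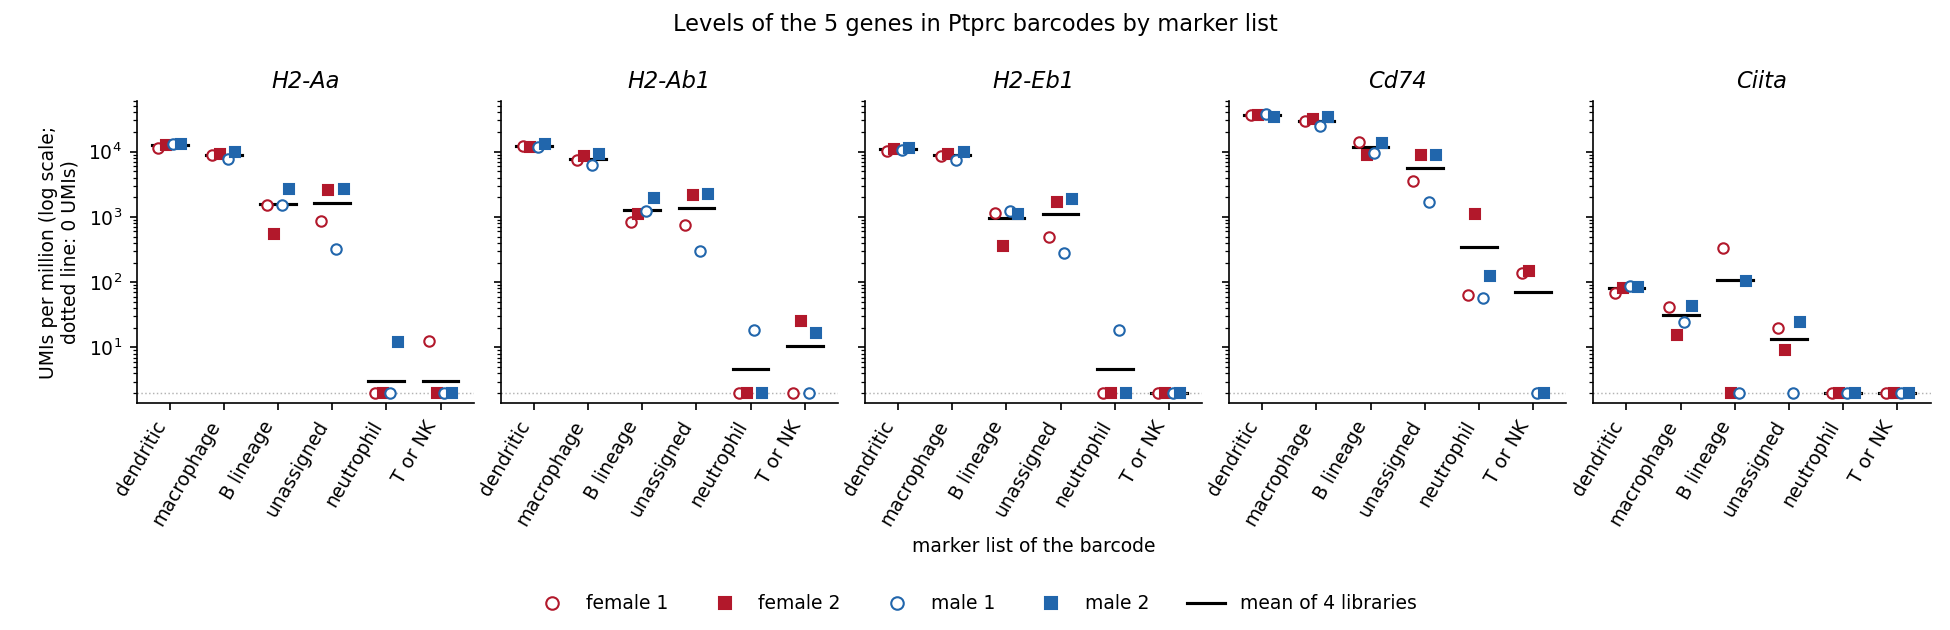
CPM (log axis) of the 5 genes in Ptprc barcodes by marker list, 1 point per library and a line at the mean of 4 libraries; points on the dotted line held 0 UMIs. Dendritic and macrophage barcodes hold the highest levels of H2-Aa, H2-Ab1, H2-Eb1 and Cd74, and T or NK and neutrophil barcodes lie more than 10 times lower.

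Other genes of the pathways differed less uniformly across the classes. Relative to neurons, 10 of 10 tested accessory genes were higher in Ptprc barcodes, 6 in Reg3g, 5 in Krt5 and 5 in Cyp2g1 barcodes, against 33.9%, 39.4%, 39.4% and 41.9% of all genes, so the counts in Krt5 and Cyp2g1 barcodes lay near the share of all genes. The class I list was higher in full, 10 of 10, in these 4 classes, with medians of 7.28, 4.42, 4.83 and 2.78. The 5 costimulation genes, which license T cells, were all higher in Ptprc and Reg3g barcodes, while Krt5 barcodes had 1 (Icosl) and Cyp2g1 barcodes 2 (Cd83 and Icosl). Cd86 was 11.87 (SE 0.23) above neurons in Ptprc barcodes and 3.60 (SE 1.12) in Reg3g barcodes. The 6 macrophage genes summed to 0.572 to 94.6 CPM in the Reg3g barcodes of a library, against 2.34 to 8.96 in Omp barcodes, and their part in the costimulation counts was not tested. Of the 7 constitutive regulators Rfx5 was the 1 called higher in all 4 classes, by 1.22 to 1.43.

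The genes most like the mean of H2-Aa, H2-Ab1, H2-Eb1 and Cd74 were ranked by Pearson's r of log2 values. Over the 24 sums of class and library, the first 10 of 10412 genes were Bst2 (r = 0.971), B2m (0.967), Psmb8, Cxcl16, H2-T23, Cyba, Mcl1, H2-DMb1, Ctsz and Grn (0.926). Over the 16 sums of immune lineage and library, the first 10 of 8339 genes were H2-DMb1 (0.982), H2-DMa (0.979), Cxcl16, Pld4, Aif1, Psap, Ly86, Cd83, Scpep1 and Clic4 (0.939). Ciita reached 0.793 and 0.452 over the same sums. Sums of 1 library share their depth and preparation, and these values describe the ranking only.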

How the data were processed

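UMI counts per gene and barcode, as deposited by the authors, came from 4 single-cell 5′ libraries (2 female, 2 male). Per the file headers they were made with Cell Ranger 6.0.2, while the submitters' processing notes name Cell Ranger 5.0.1 and mm10. The members and gene lists were chosen with earlier results of these data known. Barcodes with under 500 genes or over 10% mitochondrial UMIs were dropped, and so were doublets scored against simulated pairs without the 5 genes. Classes needed at least 2 UMIs of Ptprc, 3 of Krt5, 10 of Cyp2g1, 10 of Reg3g, 5 of Dynlrb2 or 10 of Omp, and of 1 gate only, which left 3090 mixed and 8586 ungated barcodes out. CPM are counts per 1000000 UMIs of a library's class. Counts summed per library were tested with edgeR 4.0.16 (quasi-likelihood, TMM scaling, filterByExpr, library as a block except between sexes, Benjamini-Hochberg, threshold 0.05), with DESeq2 1.42.0 as an alternative. The code was tested on simulated data with known changes. False calls made up 4.35% (dendritic against macrophage) to 13.2% (positive against negative Cyp2g1 barcodes) of all calls. Of 2-fold changes between the sexes, 30% were recovered in Ptprc and 78% in Cyp2g1 barcodes. Standard errors are the log2 difference divided by the square root of F. Lineages, Krt5 and Reg3g strata were tested with at least 5 barcodes per library in place of the planned 10, a change made after seeing the data. Same-numbered libraries were not treated as pairs, since the labels give the numbers no meaning. Intervals and limits for counts of 0 (3 counts) cover counting error only. By rule the text names the members, accessory genes, the 4 largest called differences of the pathway lists per comparison and the 10 genes most like the members; other genes were chosen after their values were seen. Alternatives were scaling, filter, doublets, gates, block, DESeq2, stricter positives and each library left out.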

Additional observations from a re-analysis of the deposited data

Results flagged for a closer look

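In Dynlrb2 barcodes, H2-Ab1 was at 68.3 CPM in male 2 and at 0 in the other 3 libraries, and the share of class II positive barcodes was 9.09% in male 2 and 0 in the others. Both were marked by Dixon's test at the 95% level, which marks any single value above 0 when the other 3 are 0. Of 36 sets tested these 2 were marked, and chance marks about 1 in 20. Both rest on the 2 positive barcodes of that library.

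Class II positive barcodes were also found among barcodes that passed no gate, against 0.114% of neurons. The share was 14.3% of the 203 barcodes with fibroblast markers (9.23%, 30.6%, 2.27% and 15.6% in female 1, female 2, male 1 and male 2). These barcodes also carried the supporting list at 11679.7 to 19576 CPM beside the fibroblast list at 5398 to 55365, and the part of mixed content was not tested. Within the fibroblast list Col1a1 was at 17171 and Dcn at 2345 CPM in these barcodes. Cyp2g1 barcodes held Dcn at 943 and Col1a1 at 3.96, so Dcn does not separate fibroblasts from supporting cells here. How many of the 203 barcodes are fibroblasts was not tested. The share of positive barcodes was 2.70% of 185 with glia markers, 1.29% of 233 with ionocyte markers and 0.303% of 2970 with immature neuron markers. It was 1.45% of 138 with tuft markers (2 barcodes, both from female 2) and 0 of 14 with endothelial markers (which allows up to 21.4%). Among 4843 barcodes with none of the lists, whose median depth was 2288 UMIs, it was 3.70%.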

How the results depend on the processing

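Pathway genes called between positive and negative epithelial barcodes stayed within 1.5 times the reported count under 39 of 39 alternatives. Of 396 values for the 5 genes between classes, 378 kept direction and call, 11 lost the call, 1 gained it and 6 changed sign. The cause of the changes below was not tested. Between Dynlrb2 and Omp barcodes DESeq2 called 2 members, higher gates 4 and leaving out each library 0 to 1. Of all genes, DESeq2 called 7683 of 13345 and higher gates 7469 of 13302, and the alternatives ranged over 6405 to 8280. Cd74 was at -0.21 there without doublet removal, -0.38 with lower gates and -0.52 to 1.73 with a library left out. Ciita between Krt5 and Cyp2g1 barcodes was at -0.085 without TMM scaling, -0.00465 with no replicate block and -0.17 to 0.17 with a library left out.

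Between the sexes, Cd74 in Ptprc barcodes was at 0.00576 without doublet removal and -0.34 to 0.19 with a library left out. With a library left out it ran from -0.67 to 0.58 in Krt5, from -2.49 to 0.84 in Cyp2g1, and from -0.80 to 0.79 in Reg3g barcodes, where lower gates gave 0.00879. With no filter 1 member was called in Dynlrb2 barcodes. The share of positive barcodes differed by 1.16 points in Ptprc barcodes with lower gates and by -8.49 to 4.22 with a library left out. The left-out ranges were -6.37 to 2.41 in Krt5, -5.21 to 1.39 in Cyp2g1, -6.95 to 5.58 in Reg3g (1.61 with higher gates) and -0.177 to 0.000141 in Omp barcodes. With the replicate number as a block, 0 of the members tested were called between the sexes, and Cd74 in Cyp2g1 barcodes was at -0.71 (edgeR adjusted p = 0.0716). Same-numbered libraries deviated together with a correlation of 0.0333 in Ptprc, 0.0354 in Krt5, 0.362 in Cyp2g1, -0.155 in Reg3g, -0.0292 in Dynlrb2 and 0.0498 in Omp barcodes. The block moved the genes called from 37 to 97 in Ptprc, 6 to 84 in Krt5, 12 to 82 in Cyp2g1 and 5 to 29 in Reg3g barcodes, and the crossed pairing of Reg3g barcodes, added after seeing the data, gave 23 genes and 0 members.

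Between dendritic and macrophage barcodes DESeq2 called 1 member and leaving out a library 0 to 1, with Cd74 at -0.0353 to 0.23. Over all genes, calls between the sexes ranged over 15 to 133 (Ptprc), 5 to 86 (Krt5), 10 to 86 (Cyp2g1), 0 to 116 (Reg3g), 0 to 85 (Dynlrb2) and 0 to 247 (Omp). Calls between lineages ranged over 961 to 2209 (T or NK), 741 to 1635 (dendritic) and 783 to 1813 (neutrophil), and those between positive and negative barcodes over 1096 to 2172 (Cyp2g1), 150 to 523 (Krt5) and 262 to 997 (Reg3g). Without TMM scaling the share of calls that were higher fell from 50% to 32.6% in Reg3g against Omp, from 55.1% to 13.5% in Reg3g against Dynlrb2 and from 54.4% to 42.7% in positive Cyp2g1 barcodes, and rose from 59.5% to 77.4% in positive Reg3g barcodes and from 48.5% to 60.7% in Dynlrb2 against Omp. With no filter it fell from 64.2% to 49.5% in positive Krt5 barcodes. Of 150 shares of barcodes with a member, 52 moved beyond the spread between libraries, 25 of them with 1 UMI in place of 3 and 15 after thinning.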

Other observations

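H2-DMa and H2-DMb1, whose products pair in H2-DM, were not at similar levels in neurons. Omp barcodes held H2-DMa at 24.6, 28.2, 29.4 and 28.2 CPM in female 1, female 2, male 1 and male 2, and H2-DMb1 at 1.13, 1.66, 1.07 and 1.51. H2-DMa did not have the library order of the class II genes there. In Ptprc barcodes the means were 402 ± 58.9 and 365 ± 79.8 (SD, n = 4). H2-DMb1 has a close copy, H2-DMb2, and how the counting divided their reads was not tested.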
